A study of Mus musculus with 50 samples.

Results

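Microglia of constitutive Hdac1/2 knockout mice were compared with those of Cre-negative controls at 6 weeks of age, in 7 of the 50 libraries of the series. The members were chosen by their column names alone, which give 3 knockouts (animals No_379, No_380 and No_398) and 4 controls (animals No_376, No_377, No_396 and No_400). Knockout mice were HDAC1/2-loxP/loxP with CX3CR1-Cre, so that loxP sites flanked part of each gene on every chromosome copy. Control mice were HDAC1/2-loxP/loxP without Cre, so what the Cre allele does and what losing both enzymes does cannot be told apart. All 7 animals were untreated, were 45 days old by the labels, and were read as female from the counts. Microglia were sorted from perfused brain by flow cytometry, and the sorting markers are not given in the sources used here. For contrast, another set holds 4 inducible knockouts (the same loxP sites with CX3CR1-CreERT2) and 4 controls without Cre at 6 weeks, whose dams had received 3 mg of tamoxifen at embryonic day 13. A further set holds 2 constitutive knockouts and 4 Cre-negative controls at 2 weeks, untreated. Each library is a different animal by its number.

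HDAC1 and HDAC2 are class I histone deacetylases that remove acetyl groups from histone tails. They act in repressor complexes such as NuRD, Sin3 and CoREST and can replace each other in many cells. Microglia are the macrophages of the brain tissue. They settle there before birth, renew themselves, and are recognised by genes such as P2ry12, Tmem119 and Sall1. CX3CR1, the fractalkine receptor, is also made by macrophages at the borders of the brain and by some blood monocytes, so a Cre driven from this gene is not limited to microglia.

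Sequencing depth ran from 12171207 to 17922366 counts in the knockouts and from 15997965 to 25694928 in the controls, and levels are given as CPM, the counts of a gene scaled to an equal total in every library. Fold changes are on a log2 scale, knockout over control, with a standard error (SE) after the ± sign, from the edgeR quasi-likelihood test over all 14428 genes that passed the filter on low counts. A gene is said to rise or fall where its Benjamini-Hochberg adjusted p is under 0.05. Genes of the microglia list stood high in all 7 libraries. Tmem119, a membrane protein gene of microglia, held 2626, 2081 and 2548 CPM in knockouts No_379, No_380 and No_398, against 3008, 3259, 2505 and 3206 CPM in controls No_376, No_377, No_396 and No_400. The groups overlapped, and its log2 change did not pass the test (adjusted p = 0.134). In bulk RNA, fewer cells of a type and less RNA per cell cannot be told apart.

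The targeted genes were read first. Hdac2 (GRCm38 chromosome 10, 36974544 to 37001889, plus strand) held 44.9, 25.9 and 18.3 CPM in the knockouts, against 74.3, 67.1, 64.4 and 71.6 CPM in the controls. It fell in the knockouts, with a log2 change of -1.28 ± 0.25 (adjusted p = 0.0084), and the groups did not overlap. Hdac1 (chromosome 4, 129516104 to 129542713, minus strand) held 7.56, 92.2 and 11.5 CPM in the knockouts, against 16.4, 16.6, 13.4 and 16.1 CPM in the controls. Knockouts No_379 and No_398 lay below every control, whereas the library labelled knockout No_380 lay above all of them. The log2 change of Hdac1 was 1.21 ± 0.88 (adjusted p = 0.51). Without the library labelled knockout No_380 it was -0.75 (adjusted p = 0.0889). Counts of both genes can include exons outside the deleted parts, and the deleted exons are not given in the sources used here. Because the Hdac1 counts of the library labelled knockout No_380 go against its label, counts of changed genes over the whole table are given with and without it, as are counts of gene lists that move by over 1.5 times.

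Over all genes, 975 rose (6.76% of those tested) and 756 fell (5.24%). Without the library labelled knockout No_380, 660 rose (4.48% of 14717 genes) and 493 fell (3.35%). The lists shared 634 rises, which are 65.0% of the rises with all 7 libraries and 96.1% of those without it, and 452 falls, 59.8% and 91.7% of each list. The library labelled knockout No_380 was also the highest knockout for 624 of the 975 rises and the lowest for 381 of the 756 falls. Over the genes that rose, its median log2 ratio to the control mean was 1.84, against 1.59 in knockout No_379 and 1.31 in knockout No_398. The library labelled knockout No_380 lay farthest from the controls, and the medians of all 3 were above 0, a side that choosing the genes by this comparison partly fixes. Every knockout library stood above every control for 13.8% of the genes tested and below every control for 8.90%.

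**Figure D1:**
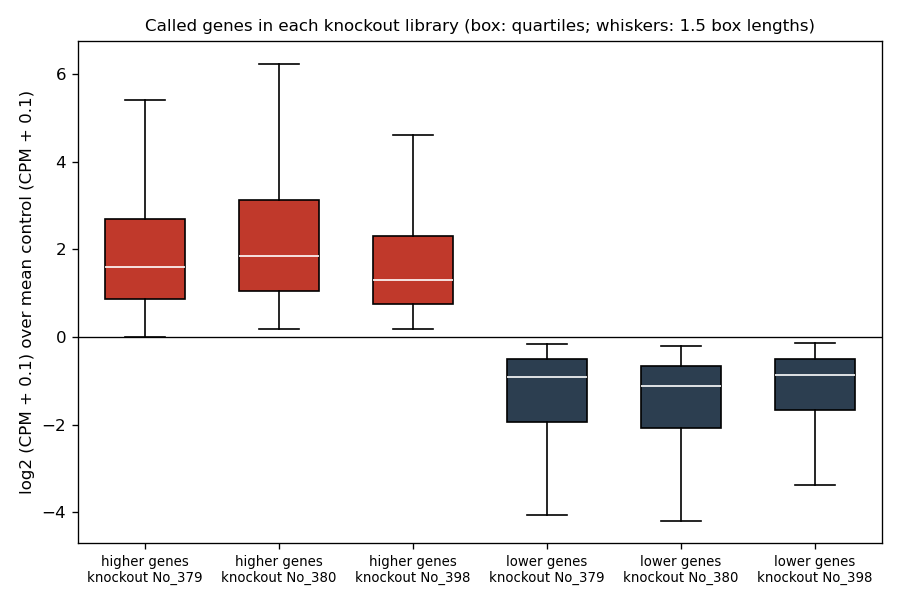
Log2 ratio of CPM (plus 0.1) to the control mean (plus 0.1) in each knockout library, for the 975 genes that rose (left 3 boxes) and the 756 that fell (right 3 boxes). Boxes span the quartiles and whiskers reach 1.5 box lengths. The median of the rises was 1.59 in knockout No_379, 1.84 in the library labelled knockout No_380 and 1.31 in knockout No_398.

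Gene lists are described by how many of their tested members rose or fell, read against 6.76% and 5.24% over all genes. Among lists with at least 10 tested genes, the largest shares of rises were in Ms4a family genes and markers of neutrophils and border macrophages. Interferon genes, inflammatory genes and lipoprotein genes came next. The homeostatic microglia list and the purinergic receptor list held the largest shares of falls among lists with at least 10 tested genes. Some genes stand in several lists, such as Ms4a7 in the Ms4a and border macrophage lists, so the lists are not independent.

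**Figure D2:**
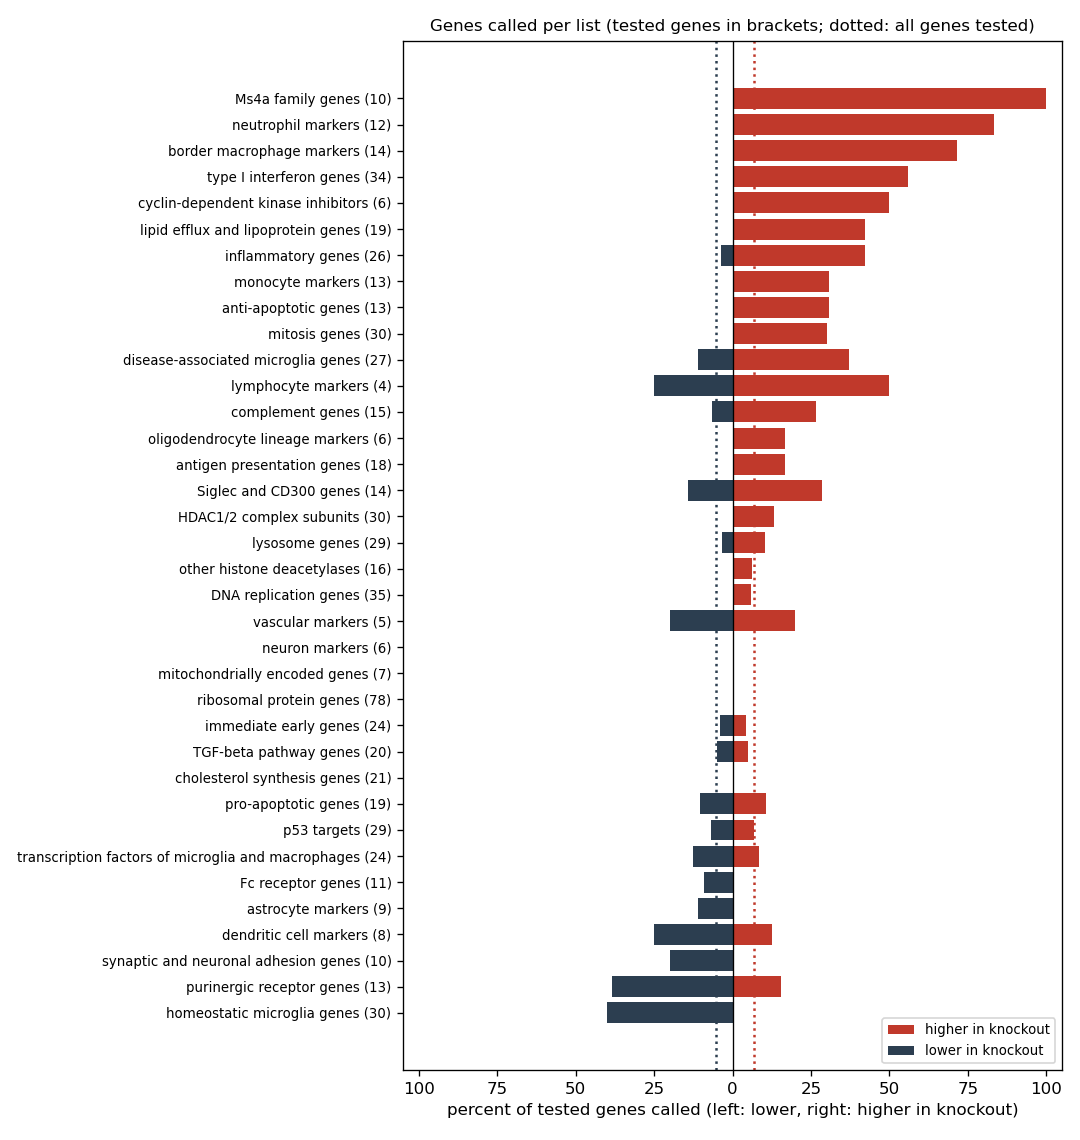
Percent of the tested genes of each list that were higher (bars to the right) or lower (bars to the left) in knockouts at 6 weeks, with the number tested in brackets and dotted lines at 6.76% and 5.24%, the shares over all genes. All 10 Ms4a genes that passed the filter on low counts were higher, a share that the filter partly fixes, and 12 of 30 homeostatic genes were lower.

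Among homeostatic microglia genes none of 30 tested rose and 12 fell, with a list median of -0.38 on the log2 scale, against -0.007 over all genes. Without the library labelled knockout No_380, none rose and 8 fell. P2ry12, the ADP receptor that steers microglial processes, held 4194, 2269 and 4790 CPM in the knockouts, against 8065, 7615, 10918 and 7516 CPM in the controls (log2 change -1.23 ± 0.25, adjusted p = 0.00862). Sparc, a secreted matrix protein gene, held 2271, 1598 and 2877 CPM in the knockouts, against 4851, 5185, 5484 and 4620 CPM in the controls (-1.21 ± 0.19, adjusted p = 0.00123). For both genes every knockout library lay below every control, and the library labelled knockout No_380 was the lowest. Selplg, a selectin ligand gene, fell by 0.83 ± 0.17 on the log2 scale, and Itgam, which encodes CD11b, fell by 0.73 ± 0.13. Cx3cr1 (chromosome 9, 119901616 to 120069879, minus strand), the gene that drives the Cre, held 2280, 3320 and 4804 CPM in the knockouts, against 5297, 7885, 5529 and 7742 CPM in the controls. Its log2 change was -0.98 ± 0.25 (adjusted p = 0.0277). That call depended on single libraries and on the filter on low counts. The adjusted p was 0.12 without the library labelled knockout No_380 and 0.0651 without knockout No_379. It was 0.0705 without control No_377, 0.071 without control No_400 and 0.0722 with no filter. In the inducible set at 6 weeks, Cx3cr1 was lower in the knockouts as well, at 3085 to 4175 CPM against 6394 to 8448 CPM in controls. Part of its exons is shared with Gm33858. Not every homeostatic gene was lower. Csf1r, the receptor on which microglial survival depends, had a log2 change of -0.28 ± 0.18, Trem2 -0.13 ± 0.11 and C1qa 0.09 ± 0.12, and none of these passed the test.

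Sall1 and Sall3 encode zinc finger regulators, of which SALL1 is the one known for setting microglial identity, and they fell by different amounts. Sall1 held 576, 319 and 569 CPM in the knockouts, against 910, 891, 870 and 851 CPM in the controls (log2 change -0.90 ± 0.19, adjusted p = 0.00784). It was not called where all 50 libraries entered the fit (adjusted p = 0.437). Sall3, its relative, held 9.94, 2.51 and 7.03 CPM in the knockouts, against 207, 243, 202 and 229 CPM in the controls. Its fitted level was 35.9-fold higher in controls (log2 change -5.17 ± 0.40, adjusted p = 1.36e-04). Sall3 was thus far lower than in any control in all 3 knockouts, whereas the fitted level of Sall1 was 1.87-fold higher in controls. Of 24 transcription factor genes of microglia and macrophages, 2 rose and 3 fell. Irf8 and Spi1, which encode the lineage factors IRF8 and PU.1, had log2 changes of 0.07 ± 0.11 and -0.26 ± 0.14 and were not called. Bhlhe40, a basic helix-loop-helix repressor gene, rose, with 35.3, 31.5 and 19.5 CPM in the knockouts against 1.38, 2.45, 0.311 and 2.48 CPM in the controls (4.09 ± 0.54).

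Several of the 10 largest falls by the naming rule were close to complete. Hspb3, a small heat shock protein gene, held 0.0822, 0.781 and 0.195 CPM in the knockouts, against 39.9, 50.7, 56.2 and 39.9 CPM in the controls (log2 change -6.93 ± 0.41, and -8.31 without the library labelled knockout No_380). Elavl4, an RNA-binding protein gene of neurons, held 0.164, 0.67 and 0.455 CPM in the knockouts, against 16.2, 14.0, 17.9 and 17.5 CPM in the controls (-5.21 ± 0.35). Snph, a syntaphilin gene known for anchoring mitochondria in axons, held at most 0.0822 CPM in any knockout and 5.81 to 7.91 CPM in the controls. It rests on 3 counts over all knockouts and Ranbp3l, also among the 10, on 1 count, so no fold is given for these genes. Hspb3, Elavl4 and Snph were low in controls and close to 0 in every knockout. Yes1, a SRC-family kinase gene, held 0.164, 3.29 and 0.065 CPM in the knockouts, against 42.6, 39.0, 56.1 and 53.2 CPM in the controls. The library labelled knockout No_380 was the highest of the knockouts, and the log2 change was -5.25 ± 0.88. Bahcc1, a chromatin reader gene, had a log2 change of -5.10 ± 0.78, and all 7 of its counts in knockouts came from that library. Without it the knockouts held 3 or fewer counts of either gene, so no fold is given. Bahcc1 shares exon bases with Gm47297 and Yes1 with Gm10461. Hlf, a PAR bZIP factor gene, held 0.0822, 0.167 and 0.586 CPM in the knockouts, against 5.56, 7.28, 20.0 and 8.27 CPM in the controls (-5.20 ± 0.68, and -6.27 without knockout No_398). None of 6 tested markers of neurons was called, and their summed level was 8.13 to 23.9 CPM in knockouts and at most 16.5 CPM in controls.

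Most of the 10 largest rises by the naming rule were of genes near 0 in controls. Ms4a7 (chromosome 19, 11321039 to 11336146, minus strand), a four-span membrane protein gene of macrophages, held 452, 831 and 373 CPM in the knockouts, against 1.81, 2.20, 0.739 and 0.879 CPM in the controls. Its fitted level was 402-fold higher in knockouts (log2 change 8.65 ± 0.47, adjusted p = 2.80e-05). Ms4a14, its neighbour at 11301249 to 11314454 on the same strand, held 71.7, 162 and 74.4 CPM in the knockouts, against 0.625, 0.306, 0 and 0.32 CPM in the controls (8.43 ± 0.61). All 10 tested of the 16 Ms4a genes rose, 8 of them also without the library labelled knockout No_380. The other 6 did not pass the filter on low counts, so the 10 are not the whole family. A gene near 0 in controls, such as Ms4a14, passes that filter only through the knockouts where it is high. The share that rose is thus partly fixed by the filter. The rises of the 10 were unequal. Ms4a6b, already at 141 to 160 CPM in controls, rose by 1.40 ± 0.12 on the log2 scale, with 366, 471 and 410 CPM in the knockouts. Ms4a4c held 64.7, 74.1 and 44.8 CPM in the knockouts, against 5.94, 2.38, 3.00 and 3.56 CPM in the controls (4.0 ± 0.29). Reads of related Ms4a genes may be split between them, so the values of single members are uncertain.

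Runx3, a runt-family transcription factor gene of leukocytes, held 28.2, 51.8 and 28.7 CPM in the knockouts, against 0.125, 0.428, 0.117 and 0.400 CPM in the controls (7.01 ± 0.40). Arhgap15, a Rac GTPase-activating protein gene, held 234, 328 and 257 CPM in the knockouts, against 6.63, 6.42, 6.19 and 5.51 CPM in the controls, with a fitted level 42.8-fold higher in knockouts (5.42 ± 0.15, adjusted p = 4.49e-09). For neither gene did the groups overlap, which for Runx3 was a condition of its place among the largest rises. Pdpn, which encodes podoplanin, held 8.87, 14.8 and 5.86 CPM in the knockouts, against 0, 0, 0.156 and 0.0399 CPM in the controls (7.19 ± 0.63, resting on 5 counts over all controls). Hepacam2, an adhesion molecule gene, was far from even among knockouts, at 5.83, 48 and 19.1 CPM, against 0.125, 0.489, 0 and 0 CPM in the controls (7.48 ± 1.17, and 6.49 without the library labelled knockout No_380). Of its 10 counts over all controls most were in control No_377, and no fold is given without that library. Slc7a2, a cationic amino acid transporter gene, rose by 7.79 ± 0.51 and rests on 4 counts over all controls. Stard13, Fam110b and Apoc4 were also among the 10 largest rises, but their controls held only 1, 2 and 3 counts in all, so no fold is given.

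Lipid transport genes rose with them. Of 19 tested genes of lipid efflux and lipoproteins, 8 rose and none fell, the same counts without the library labelled knockout No_380. Apoc1 and Apoc4, near 0 in controls, passed the filter on low counts only through the knockouts, so this share is partly fixed by the filter. Apoe (chromosome 7, 19696109 to 19699188, minus strand), the main lipoprotein of brain tissue, held 18032, 51015 and 20915 CPM in the knockouts, against 498, 562, 352 and 295 CPM in the controls. Its fitted level was 68-fold higher in knockouts (log2 change 6.09 ± 0.46, adjusted p = 8.20e-05), and 5.47 without the library labelled knockout No_380, the highest of the knockouts. Apoc1, which lies beside Apoe on the same strand (19689481 to 19692660), held 35.5, 15.1 and 18.8 CPM in the knockouts, against 0.500, 0, 0.195 and 0 CPM in the controls (7.06 ± 0.74, and 8.12 without control No_376). Msr1, a scavenger receptor gene, held 112, 202 and 139 CPM in the knockouts, against 6.00, 6.11, 5.29 and 4.15 CPM in the controls (4.77 ± 0.22). For all 3 genes the groups did not overlap, which for Apoc1 was a condition of its place among the largest rises. Not all lipid genes moved: Lpl, a lipoprotein lipase gene, had a log2 change of -0.32 ± 0.26, and none of 21 cholesterol synthesis genes was called.

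Of 27 genes of the disease-associated microglia list, which overlaps the lipid list in Apoe and Lpl, 10 rose and 3 fell, and 10 rose and 1 fell without the library labelled knockout No_380. Axl, a receptor kinase for apoptotic cells, held 515, 653 and 395 CPM in the knockouts, against 22.2, 13, 12.8 and 14.9 CPM in the controls (5.00 ± 0.24, adjusted p = 1.82e-06). Clec7a, which encodes dectin-1, held 278, 213 and 215 CPM in the knockouts, against 29.7, 20.9, 45.0 and 37.1 CPM in the controls (2.77 ± 0.23). Lgals1, which encodes galectin-1, rose by 3.02 ± 0.29 and Cd63, a tetraspanin gene of late endosomes, by 1.24 ± 0.13. The members of the list differed. Itgax, which encodes CD11c, had a log2 change of -0.28 ± 0.25 and Spp1, which encodes osteopontin, had 2.06 ± 0.65, and neither passed the test. Spp1 differed widely among knockouts, at 60.6, 48.9 and 8.33 CPM, against 7.69, 9.84, 13.1 and 5.75 CPM in the controls.

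**Figure D3:**
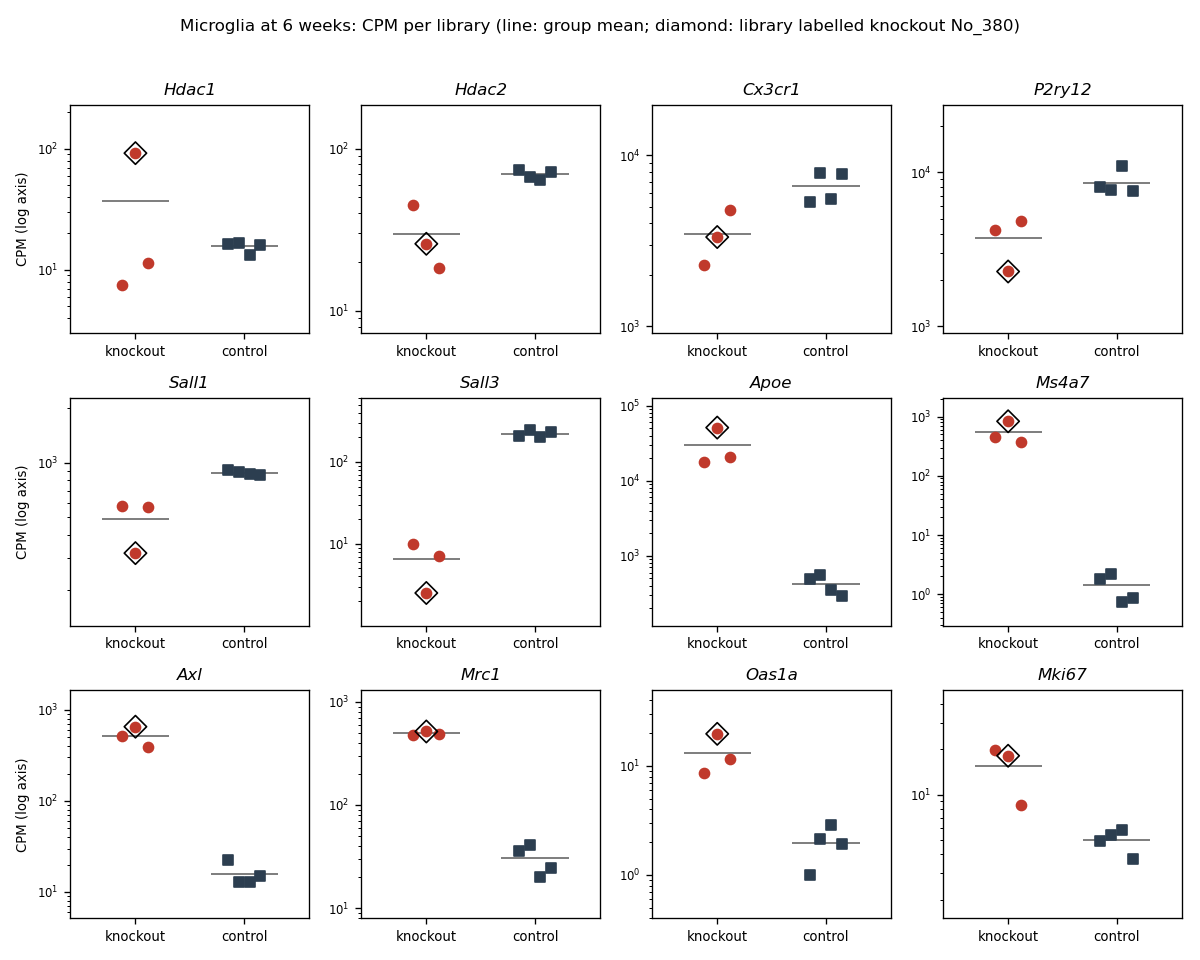
CPM of 12 genes in the 3 knockout libraries (circles, left) and the 4 control libraries (squares, right), each panel on its own log axis, with a line at the group mean and a diamond round the library labelled knockout No_380. Hdac1 in that library stood at 92.2 CPM, above all controls. Sall3, Apoe, Ms4a7, Axl, Mrc1 and Oas1a separated the groups in all 7 libraries. For Sall3 and Ms4a7 this was a condition of their place among the largest falls and rises.

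Type I interferon genes, which encode antiviral proteins, rose in part. Of 34 tested, 19 rose and none fell, with a list median of 1.10 on the log2 scale. Without the library labelled knockout No_380, 10 rose. Oas1a, a 2-5A synthetase gene (chromosome 5, 120896256 to 120907521, minus strand), held 8.63, 19.7 and 11.5 CPM in the knockouts, against 1.00, 2.14, 2.88 and 1.92 CPM in the controls (log2 change 2.68 ± 0.37, adjusted p = 6.24e-04). It has near-identical relatives such as Oas1g, so its counts may be shared with them. Mx1, which encodes a dynamin-like GTPase, held 17.5, 20.6 and 16.3 CPM in the knockouts, against 7.0, 5.87, 6.58 and 9.15 CPM in the controls (1.29 ± 0.20). Irf7, the factor that amplifies the response, held 10.3, 20.5 and 9.76 CPM in the knockouts, against 3.81, 3.79, 3.77 and 4.15 CPM in the controls (1.75 ± 0.28). All of these levels were low, at most 20.6 CPM in any knockout. Isg15, a ubiquitin-like modifier gene that interferon induces, had a log2 change of 0.27 and was not called (adjusted p = 0.755). Ifih1 and Ddx58, which encode RNA sensors, were not called either (-0.06 and -0.16).

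Promoters are shown for Oas1a, Cybb and Ms4a14, chosen after the search from genes that rose because they hold a motif of immune transcription factors. Those of Ms4a7, Apoe and Axl were searched too and held none of the 3 motifs. Each covers 250 bases before and 50 after the start of the gene, from RefSeq on GRCm38.p6, on the minus strand and written 5′ to 3′: chr5:120907476-120907775 for Oas1a, chrX:9469275-9469574 for Cybb and chr19:11314405-11314704 for Ms4a14. Capitals mark GAAA, any 2 bases and GAAA again, on either strand, the core of the interferon-stimulated response element (ISRE), and TGANTCA, a site of AP-1 factors.
Oas1a: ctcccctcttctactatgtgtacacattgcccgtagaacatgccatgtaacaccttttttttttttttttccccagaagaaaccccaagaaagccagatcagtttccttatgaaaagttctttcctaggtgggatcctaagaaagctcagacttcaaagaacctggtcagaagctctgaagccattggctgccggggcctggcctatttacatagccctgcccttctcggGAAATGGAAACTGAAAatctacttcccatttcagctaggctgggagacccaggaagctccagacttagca
Cybb: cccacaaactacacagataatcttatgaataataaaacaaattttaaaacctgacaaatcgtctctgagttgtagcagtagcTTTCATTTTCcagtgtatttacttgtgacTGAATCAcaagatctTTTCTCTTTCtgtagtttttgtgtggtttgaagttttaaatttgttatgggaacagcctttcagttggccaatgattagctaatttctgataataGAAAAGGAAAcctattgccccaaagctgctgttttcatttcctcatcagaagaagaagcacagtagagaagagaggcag
Ms4a14: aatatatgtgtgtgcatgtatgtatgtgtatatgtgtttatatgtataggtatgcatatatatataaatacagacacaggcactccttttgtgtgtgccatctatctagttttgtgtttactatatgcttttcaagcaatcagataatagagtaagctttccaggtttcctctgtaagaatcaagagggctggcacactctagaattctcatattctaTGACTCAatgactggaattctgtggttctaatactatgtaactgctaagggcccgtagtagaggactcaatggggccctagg
In Oas1a 2 copies of the ISRE core overlap, and Cybb holds 3 separate copies and a TGANTCA that overlaps none of them. The ISRE core stood in 3.44% of 32851 promoters of this length and TGANTCA in 7.81%. The third motif, GAGGAA followed by GT, a site of PU.1, stood in 3.2% of promoters. Counted by gene, in any of its promoters, the ISRE core stood in 3.99% of 27025 genes. By the same count TGANTCA stood in 8.97% and the PU.1 site in 3.69%. Among interferon genes with a promoter, 7 of the 13 that rose and 7 of the 12 that were not called held the ISRE core, as did 0 of 14 Ms4a genes. TGANTCA stood in 4 genes of each of these 3 sets, and the PU.1 site in none. Cybb, the catalytic subunit of the phagocyte NADPH oxidase, held 830, 1282 and 705 CPM in the knockouts, against 45.2, 38.8, 12.3 and 20.6 CPM in the controls (4.97 ± 0.52, adjusted p = 0.00171).

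Of 26 inflammatory genes 11 rose and 1 fell, and 9 rose and 2 fell without the library labelled knockout No_380. Ccl12, a chemokine gene, held 250, 337 and 265 CPM in the knockouts, against 77.1, 77.6, 108 and 71.2 CPM in the controls (1.72 ± 0.16). Cxcl16, a membrane-bound chemokine gene, rose by 2.03 ± 0.19, Tlr2, a receptor for bacterial lipoproteins, by 1.21 ± 0.15, and Il1b, the cytokine gene, by 2.14 ± 0.28. Ccl4, another chemokine gene, went the other way, with 31.9, 35.0 and 19.8 CPM in the knockouts, against 68.4, 75.6, 44.7 and 55.6 CPM in the controls (-1.13 ± 0.23). Il6 and Tlr4 had log2 changes of -0.17 and 0.05 and were not called. Class II genes were highest in the library labelled knockout No_380. H2-Ab1, a class II gene, held 58.3, 261 and 58.5 CPM in the knockouts, against 16.5, 20.3, 21.1 and 15.5 CPM in the controls (2.73 ± 0.61, adjusted p = 0.0398, and 1.62 without that library). The adjusted p of H2-Ab1 was 0.101 to 0.121 where any control was left out. H2-Aa held 78.1, 277 and 37.5 CPM in the knockouts, against 15.7, 18.3, 12.8 and 6.03 CPM in the controls, and was not called (adjusted p = 0.0541).

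Genes of the purinergic receptor list split by member, with 2 of 13 rising and 5 falling. Without the library labelled knockout No_380, 2 rose and 3 fell. With all 7 libraries P2rx4 and Nt5e rose, and Nt5e encodes an ectonucleotidase, not a receptor. P2rx4, the ATP-gated channel gene known from activated microglia, held 330, 364 and 300 CPM in the knockouts, against 150.2, 155, 130 and 160 CPM in the controls (1.11 ± 0.11). Adora3, an adenosine receptor gene, held 44.5, 24.7 and 38.2 CPM in the knockouts, against 122, 108, 126 and 92.8 CPM in the controls (-1.70 ± 0.20). Siglec genes split as well. Siglec1, which encodes sialoadhesin, held 31.6, 48 and 75.8 CPM in the knockouts, against 2.88, 3.24, 4.51 and 2.80 CPM in the controls (3.89 ± 0.30). Siglecf held 15.1, 10.7 and 12.2 CPM in the knockouts, against 110, 61.6, 102 and 59.2 CPM in the controls (-2.78 ± 0.27). Among the 14 Siglec and CD300 genes tested, 4 rose and 2 fell.

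Mitosis genes rose in part and stood at low levels. Of 30 tested 9 rose and none fell, with a median log2 change of 1.17, and 6 rose without the library labelled knockout No_380. Cenpf, a kinetochore gene, held 15.2, 15.5 and 15 CPM in the knockouts, against 3.81, 3.61, 3.46 and 5.27 CPM in the controls (1.86 ± 0.22). Mki67, the proliferation marker, held 19.7, 18.1 and 8.52 CPM in the knockouts, against 4.94, 5.38, 5.84 and 3.75 CPM in the controls (1.58 ± 0.29, adjusted p = 0.00385). DNA replication genes were near the background, with 2 of 35 rising and none falling. Rrm2, the ribonucleotide reductase subunit gene, was among the 2, at 7.64, 5.58 and 7.29 CPM in the knockouts, against 1.94, 2.63, 1.56 and 1.32 CPM in the controls (1.84 ± 0.32). Of 6 cyclin-dependent kinase inhibitor genes 3 rose, and none did without the library labelled knockout No_380. Of 29 p53 targets 2 rose and 2 fell, with 1 rising and 2 falling without that library. Of 19 pro-apoptotic genes 2 rose and 2 fell, with none rising and 2 falling without it. Bcl2l2, an anti-apoptotic gene, rose by 1.90 ± 0.33, and 4 of 13 anti-apoptotic genes rose, 2 without that library.

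The other histone deacetylases did not rise as a family. Of 16 tested only Hdac9, a class IIa member, was called, with 82.5, 115 and 94.6 CPM in the knockouts, against 25.4, 29.8, 37.8 and 32.2 CPM in the controls (1.59 ± 0.16, adjusted p = 5.28e-05). Hdac3, the nearest relative outside the targeted genes, held 79.0, 77.2 and 78.5 CPM in the knockouts, against 75.5, 59.7, 84.7 and 67.0 CPM in the controls (0.08 ± 0.13, and -0.0039 without control No_377). Of 30 subunits of HDAC1/2 complexes 4 rose and none fell. Trerf1, a factor of the MiDAC complex, held 22.8, 18.2 and 10.2 CPM in the knockouts, against 1.31, 1.59, 2.06 and 2.32 CPM in the controls (3.16 ± 0.31). Mta3 and Mbd2, NuRD subunit genes, rose by 0.85 ± 0.17 and 0.62 ± 0.13.

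Markers of other myeloid cells moved with these groups. Of 14 tested border macrophage markers 10 rose and none fell, with or without the library labelled knockout No_380, and their summed level was 3748, 3814 and 3267 CPM in the knockouts, against 886, 1069, 639 and 867 CPM in the controls. Mrc1, the mannose receptor gene, held 474, 516 and 490.0 CPM in the knockouts, against 36.0, 40.9, 19.9 and 24.6 CPM in the controls (3.98 ± 0.23). Dab2, an endocytic adaptor gene, rose by 2.41 ± 0.17. Pf4 and Clec12a, also on the list, rose as well. Lyve1, another marker of the list, stayed at or under 0.657 CPM in knockouts and at or under 1.94 CPM in controls (adjusted p = 0.438). Cd209f was at 0 in all 3 knockouts. Of 13 monocyte markers 4 rose and 3 did without the library labelled knockout No_380. Ccr2, the defining chemokine receptor of monocytes, held 104, 68 and 3.71 CPM in the knockouts, against 25.5, 26.4, 18.5 and 11.1 CPM in the controls, so it was lower in knockout No_398 than in any control. Summed monocyte markers stood at 974, 978 and 253 CPM in the knockouts and 56.8 to 152 CPM in the controls. The summed monocyte markers of knockout No_398 were the lowest of the knockouts but above every control. Its levels were 20915 CPM for Apoe, 373 CPM for Ms4a7 and 395 CPM for Axl. What part monocytes have in these levels was not tested.

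Neutrophil markers rose in 10 of 12 tested genes, the same number without the library labelled knockout No_380. Their summed level was 3719, 5761 and 2817 CPM in the knockouts, against 1152, 1359, 927 and 1277 CPM in the controls. Ngp, a granule protein gene, held 818, 1382 and 613 CPM in the knockouts, against 152, 189, 120 and 169 CPM in the controls (2.53 ± 0.26). The summed level was higher in each knockout than in any control. Cxcr2 (log2 change 1.66 ± 0.99) and Csf3r (-0.12 ± 0.13), receptor genes of neutrophils, were the tested markers that were not called. Summed lymphocyte markers were at 18.3 to 20.6 CPM in knockouts and 48 to 64.1 CPM in controls, mostly from Cd79b, a B cell receptor gene, which fell by 2.42 ± 0.24 on the log2 scale. Of the 4 tested, Cd4 and Ms4a1 rose, by 3.98 ± 0.80 and 4.42 ± 0.89, but stayed at or under 5.19 CPM in every library, and Lck was not called (0.20 ± 0.44). Without the library labelled knockout No_380, 2 of 5 rose and 2 fell. Cd3e and Cd3g were at 0 in all 7 libraries. Summed vascular markers were 21.8 to 28.0 CPM in knockouts and 44.1 to 66.0 CPM in controls, and oligodendrocyte markers 111 to 130 CPM and 109 to 143 CPM. What part these markers have in the inflammatory, lipoprotein and interferon counts was not tested.

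**Figure D4:**
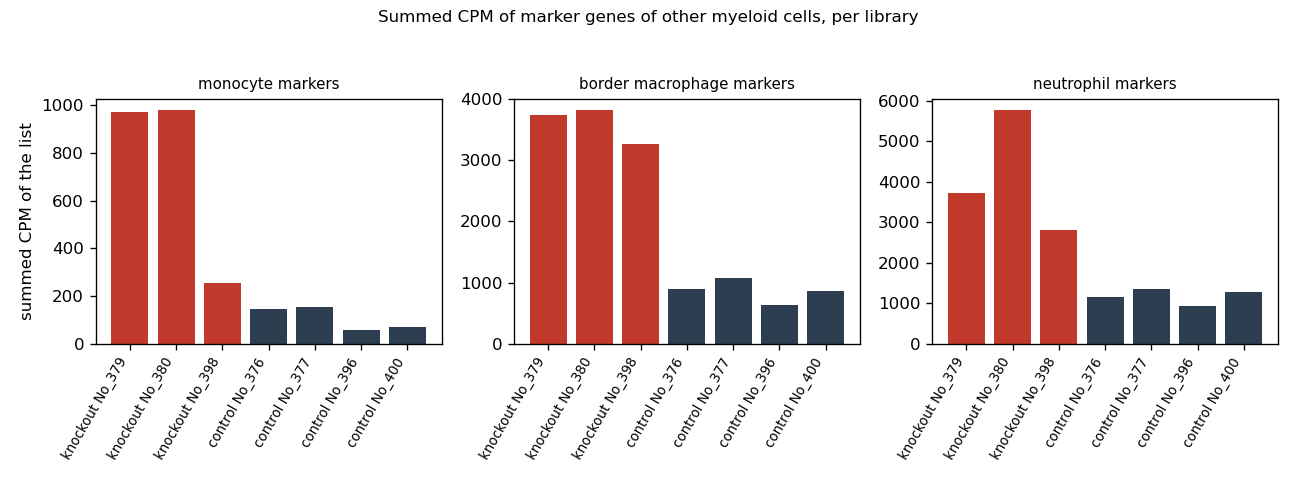
Summed CPM of border macrophage, monocyte and neutrophil marker genes in each library, knockouts left and controls right in each panel. Border macrophage markers summed to 3267 to 3814 CPM in knockouts and 639 to 1069 CPM in controls, whereas monocyte markers in knockout No_398 (253 CPM) stood closer to controls than those of the other knockouts.

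The effect at 6 weeks was set against that of the inducible model at the same age by testing the difference of the 2 effects over 15492 genes. The constitutive effect was higher than the inducible one for 394 genes (2.54%) and lower for 373 (2.41%). Without the library labelled knockout No_380 it was higher for 244 and lower for 287. By the counts, the inducible set at 6 weeks held both sexes, whereas all 7 constitutive animals were female. With sex in the fit the effect was higher for 355 genes and lower for 335. Apoe averaged 29988 ± 18267 CPM in constitutive knockouts and 427 ± 124 CPM in their controls (SD, n = 3 and 4), while inducible knockouts averaged 765 ± 461 CPM and their controls 680 ± 91.3 CPM (SD, n = 4 each). The difference of its log2 changes was 5.96 ± 0.63 (adjusted p = 8.32e-05, and 5.33 without the library labelled knockout No_380). Ms4a7 stayed near 1 CPM in both inducible groups (difference 8.68 ± 0.93), and Sall3 averaged 194 ± 18.0 CPM in inducible knockouts and 199 ± 58.8 CPM in their controls (difference -5.09 ± 0.43). The 5 genes with the smallest adjusted p for this difference were Myo6, an unconventional myosin gene, Nbea, a neurobeachin gene, Hspb3, Casc4 and Arhgap15. Myo6 held 1.73, 1.34 and 1.30 CPM in constitutive knockouts and 32.7 ± 2.17 CPM in their controls, and 32.6 ± 2.71 CPM in inducible knockouts and 32.1 ± 4.37 CPM in their controls (difference -4.53 ± 0.22, adjusted p = 8.57e-10). Of the lists, 9 of 34 interferon genes, 6 of 27 disease-associated genes and 6 of 14 border macrophage markers had a higher constitutive effect and none a lower one, and 6 of 30 homeostatic genes had a lower one. These list counts were not repeated without the library labelled knockout No_380. Hdac2 averaged 29.7 ± 13.7 CPM in constitutive and 29.6 ± 2.36 CPM in inducible knockouts, against 69.4 ± 4.44 and 70.6 ± 4.83 CPM in their controls (difference 0.01 ± 0.27, adjusted p = 0.993). None of 13 tested neutrophil markers passed the test of this difference, though all 13 differences were above 0, with a median of 1.15 on the log2 scale.

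The effect at 6 weeks was also set against that at 2 weeks in the same model, over 16043 genes. It was higher at 6 weeks for 943 genes (5.88%) and lower for 1591 (9.92%), and for 880 and 1439 without the library labelled knockout No_380. Both 2-week knockouts were male and the 6-week animals female, so age and sex are only partly separated, and with sex in the fit the counts were 735 and 1337. Without 2-week knockout No_89, whose Hdac2 (70.1 CPM) lay within the range of its controls, they were 518 and 583. The list counts that follow use all libraries and were not repeated without No_89 or without the library labelled knockout No_380. Of 30 homeostatic genes 20 had a higher effect at 6 weeks and none a lower one. Markers of other myeloid cells differed between the ages too. The effect was lower at 6 weeks for 7 of 15 neutrophil, 3 of 13 monocyte and 5 of 15 border macrophage markers. It was higher for 1 border macrophage marker. What part a differing mix of cells has in these differences was not tested. P2ry12 held 1735 and 602 CPM in the 2-week knockouts, against 11750 ± 1626 CPM in their controls (SD, n = 4), and its effect was higher at 6 weeks by 2.13 ± 0.47 on the log2 scale (adjusted p = 0.00973, and 1.64 and 2.98 without knockouts No_89 and No_80). Sall3 held 0.515 and 0.31 CPM in the 2-week knockouts and 159 ± 3.99 CPM in their controls, a difference of 3.43 ± 0.59. For both genes the fall was the smaller one at 6 weeks. Apoe held 15258 and 15146 CPM in the 2-week knockouts, against 1569 ± 230.4 CPM in their controls, and its rise was larger at 6 weeks by 2.80 ± 0.52 (adjusted p = 0.00411). The controls of Apoe were lower at 6 weeks, at 295 to 562 CPM, while the 6-week knockouts held 18032, 51015 and 20915 CPM. Of 35 DNA replication genes 22 had a lower effect at 6 weeks and none a higher one, and of 30 mitosis genes 10 had a lower effect. Mki67 itself averaged 302 CPM in 2-week knockouts and 72.0 CPM in their controls, and its effect did not pass the test of the difference (-0.48, adjusted p = 0.348).

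The 5 genes with the smallest adjusted p between the ages were Srgn, Nav2, Plxna4, Tmem87a and S100a10. Nav2, a neuron navigator gene, held 114, 152 and 178 CPM in 6-week knockouts and 470.4 ± 55.6 CPM in their controls, and averaged 13.1 CPM in 2-week knockouts and 335 ± 28.2 CPM in their controls (difference 2.97 ± 0.22, adjusted p = 5.25e-06). Srgn, the serglycin gene of granules, averaged 171 ± 3.56 CPM in 6-week knockouts and 109 ± 13.9 CPM in their controls, and 207 CPM in 2-week knockouts and 13.5 ± 1.35 CPM in their controls (difference -3.35 ± 0.19). Tmem87a, a Golgi membrane protein gene, averaged 25.2 ± 0.555 CPM in 6-week knockouts and 23.3 ± 2.09 CPM in their controls, whereas 2-week knockouts averaged 22.5 CPM and their controls 91.5 ± 7.30 CPM (difference 2.08 ± 0.16). For Srgn and Tmem87a the mean levels of the knockouts at the 2 ages lay closer to each other than those of the controls did.

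**Figure D5:**
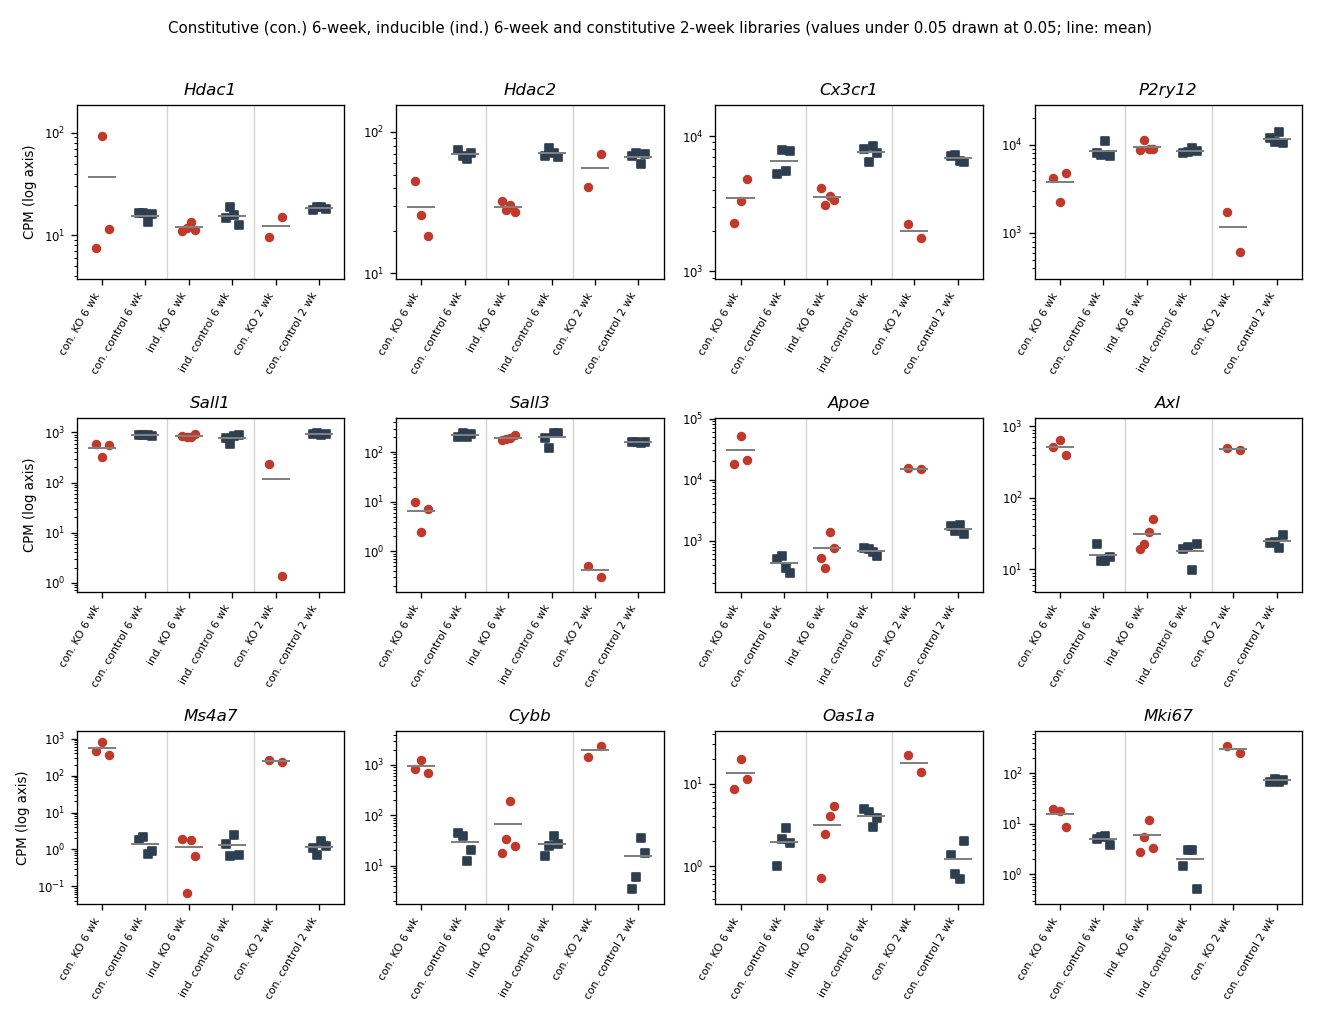
CPM of 12 genes on log axes in constitutive knockouts and controls at 6 weeks, inducible knockouts and controls at 6 weeks, and constitutive knockouts and controls at 2 weeks (circles for knockouts, squares for controls, lines at group means, values under 0.05 drawn at 0.05). Ms4a7 stood near 1 CPM in inducible knockouts, against 373 to 831 CPM in constitutive knockouts at 6 weeks.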

How the data were processed

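RNA was read from sorted microglia, and the analysis started from the authors' deposited table of counts per gene for 50 libraries. Per the submitters' processing notes, CASAVA 1.8.2, STAR 2.5.2b, featureCounts 1.5.1 and limma 3.28.21 were used with GRCm38, and the sources used here give no annotation release. The deposited CPM table equals each count over its library total, and a deposited log2 table was not used. Of 48526 genes, 48058 were found by symbol in GENCODE vM21 (GRCm38), and the other 468 held 0.058% of the counts.

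Each comparison used only its own groups, with filterByExpr, TMM scaling, edgeR 4.0.16 quasi-likelihood fits (robust=TRUE) in R 4.3.3 and Benjamini-Hochberg adjustment, tested on simulated data. DESeq2 1.42.0, another scaling, no filter, all 50 libraries, sex as a covariate and leaving out each library were alternatives. Libraries of a group differed beyond counting error (chi-square per gene 11.9 to 48.9), so none was counted as a duplicate. CPM values carry counting error, and PCR copies are not independent molecules.

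Named by rule were Hdac1, Hdac2, Cx3cr1, the 10 largest rises and falls among genes whose groups do not overlap and whose higher mean is 5 CPM or more, up to 4 called members of each list, and the 5 smallest adjusted p of each interaction. Genes outside the rule were added to complete a list after their values were seen. Members and lists were chosen with earlier results of these data known. No fold is given where a group holds 3 or fewer counts. The libraries' animal numbers name different animals.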

Additional observations from a re-analysis of the deposited data

Results flagged for a closer look

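Among the 4 controls at 6 weeks, 1 library lay far from the other 3 for 7 of the 154 genes whose control values were tested in this way, a number that chance alone can give, since about 1 in 20 such groups is marked. They were Hdac1 (13.39 CPM in control No_396, against 16.1 to 16.6), Irf7 (4.154 CPM in control No_400, against 3.77 to 3.81), Ccna2 (1.345 CPM in control No_377, against 3.06 to 3.36), Dab2 (66.64 CPM in control No_377, against 44.3 to 46.8), P2ry12 (10917.8 CPM in control No_396, against 7516 to 8065), Csf1r (8042.2 CPM in control No_396, against 11610 to 11753) and Tlr8 (1.79 CPM in control No_396, against 0.28 to 0.5).

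Differences between the constitutive and the inducible effect at 6 weeks passed the edgeR test of the difference itself for these genes. The log2 differences below 0 were -4.529 for Myo6, -4.664 for Nbea, -6.66 for Hspb3, -4.475 for Casc4, -5.088 for Sall3, -1.007 for Sall1 and -1.354 for P2ry12. The log2 differences above 0 were 5.017 for Arhgap15, 5.956 for Apoe, 8.681 for Ms4a7, 4.255 for Axl, 3.094 for Oas1a, 2.226 for Irf7 and 4.844 for Msr1. That of Irf7 was 1.79 (adjusted p = 0.0648) without the library labelled knockout No_380. Those of Sall1 and P2ry12 were not called with all 50 libraries in the fit (adjusted p = 0.696 and 0.126).

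Between 6 and 2 weeks the constitutive effect differed by -3.35 for Srgn, 2.967 for Nav2, 3.202 for Plxna4, 2.083 for Tmem87a, -4.185 for S100a10, 2.8 for Apoe, 3.432 for Sall3 and 2.132 for P2ry12, on the log2 scale. These calls held in every alternative run.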

How the results depend on the processing

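Leaving out each library in turn gave 660 to 993 genes that rose and 493 to 845 that fell at 6 weeks, 244 to 483 higher and 287 to 412 lower effects against the inducible model, and 518 to 1272 higher and 583 to 1851 lower effects against 2 weeks. The counts that moved by over 1.5 times were 493 falls and 244 higher effects against the inducible model, both without the library labelled knockout No_380, and 518 and 583 against 2 weeks without knockout No_89 of that age. DESeq2 gave 1205 rises and 1024 falls, no filter 1139 and 868, all 50 libraries 1128 and 789, and DESeq2's scaling in edgeR 973 and 750. Of 155 gene results called by edgeR, all kept their call under DESeq2 and under that scaling, 9 lost it with no filter, 19 with all 50 libraries, and 113 of 1245 values did where 1 library was left out. None of these reversed. With 1 library left out, Hdac1 ranged from -0.75 (without the library labelled knockout No_380) to 1.69, and Hdac3 from -0.0039 (without control No_377) to 0.17. Both reversed at the lower end and neither was called. Sex as a covariate could not be fitted in the constitutive comparison at 6 weeks, where all animals were female. No paired analysis was possible because animal numbers differ between the groups. Genes with a few counts in a group carry wide errors at this depth.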

Other observations

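The library labelled knockout No_380 held 109 genes at over 2-fold above all 6 other libraries, against 44 in knockout No_379 and 10 in knockout No_398. Several genes among them were chosen for description after their values were seen. Gdf3, a growth factor gene of the TGF-beta family, held 115 CPM in that library and at most 0.183 CPM in any other. Fam167b, which lies near Hdac1 on chromosome 4, held 254 CPM there, against 73.3 and 81.9 CPM in the other knockouts and 50.6 to 64.2 CPM in controls. The nearby genes Lck, Marcksl1 and Eif3i were at 3.63, 42.8 and 62.4 CPM in that library, with controls at up to 2.76, 38.0 and 66.2 CPM. Ttr, a transport protein gene of the choroid plexus, held 306 CPM there, against 25.6 and 81.9 CPM in the other knockouts and 10.8 to 37.8 CPM in controls. Enpp2 and Kl, also known from choroid plexus, held 222 and 20.7 CPM there, with at most 62.6 and 3.12 CPM in any other library. None of these differences between groups was called, and Gdf3 did not pass the filter.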
